A study of Homo sapiens with 6 samples.

Results

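Aminoacyl-tRNA synthetases are the enzymes that join each amino acid to its transfer RNA. Their transcripts were compared in HT-1080 human fibrosarcoma cells, an established tumour line, after 8 h with recombinant interferon gamma (IFNg) at 10 ng/ml and in cells given PBS. The genes were taken by symbol from a fixed list of 36, of which 20 encode cytosolic enzymes or their subunits and 16 encode mitochondrial enzymes, whose symbols end in 2. All 36 symbols were among the 17187 in the deposited gene table, and all 36 passed the filter on low values. The series has 6 total RNA libraries depleted of ribosomal RNA, 3 from IFNg-treated wild-type HT-1080 cells and 3 from PBS controls (called control) of the same line. Whether replicate libraries stem from different cultures is not stated in the labels, so p-values measure only the spread between these libraries, which may be technical.

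Charging of tRNA takes place in the cytosol and again inside mitochondria, and most amino acids have a separate nuclear gene for each compartment. Several cytosolic enzymes sit together in a multisynthetase complex held by scaffold proteins, while the others act as free enzymes. Many cytosolic synthetase genes are known targets of ATF4, the transcription factor that is made when amino acids run short or the endoplasmic reticulum is stressed. WARS, the cytosolic tryptophanyl-tRNA synthetase, is known apart from these as an interferon-inducible gene. IFNg also induces IDO1, the enzyme that breaks down tryptophan.

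Values are given as normalised read counts, which are whole reads divided by 1 size factor per library and not divided by gene length. The libraries held 59556948 to 83501954 reads on genes, and 1 read was worth 0.835 to 1.16 normalised counts. Libraries numbered 3 stood apart from numbers 1 and 2 on the second principal component in each group (15.6 and 23.6 for IFNg 3 and control 3, against -12.9 to -6.71 for the other 4 libraries). The interferon-responsive gene IRF1, which encodes a transcription factor, averaged 28355 ± 2187 in IFNg and 624 ± 324 in control (SD, n = 3 each), or 5.62 ± 0.26 (SE) higher on the log2 scale by limma, at an adjusted p of 3.70e-08. The 10 mesenchymal marker genes listed were all expressed in every library, with a summed count of 826197 to 889865 in IFNg and 917905 to 967442 in control. The 3 epithelial markers KRT19, KRT5 and CLDN4 summed to 48.7 to 78.0 counts in IFNg and 37.6 to 68.1 in control. The 5 leukocyte markers summed to 3641 to 4269 in IFNg and 3991 to 4220 in control, of which NCAM1, also a gene of neural cells, had 3465 to 4117 and 3866 to 4088. Of the other leukocyte markers, LYZ had 97.6 to 151 in IFNg and 114 to 157 in control, and PTPRC, which all leukocytes express, had 0 to 44.6 and 0 to 10.7. EPCAM, CDH1, MS4A1 and CD8A were not analysed here.

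WARS was the synthetase gene with by far the largest difference. Its normalised read count was 155771, 157040 and 162868 in IFNg libraries, against 21352, 20657 and 15009 in control libraries. The lowest IFNg library lay far above the highest control library. The log2 difference was 3.08 ± 0.12 (SE; limma adjusted p = 1.38e-08, over 15546 genes), and the IFNg mean was 8.34 times the control mean. Leaving out any 1 library kept the call (adjusted p of at most 1.02e-06), as did a fit without a variance trend (0.00109). Of all 15546 kept genes, WARS had the largest increase in normalised count (139553 between the means), while 119 genes had a larger log2 difference, which makes it number 120 by that measure. WARS held 0.225%, 0.225% and 0.236% of all reads in IFNg libraries, against 0.0304%, 0.0296% and 0.022% in control libraries. In bulk RNA, more transcript in every cell and more cells with the transcript cannot be told apart.

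**Figure D1:**
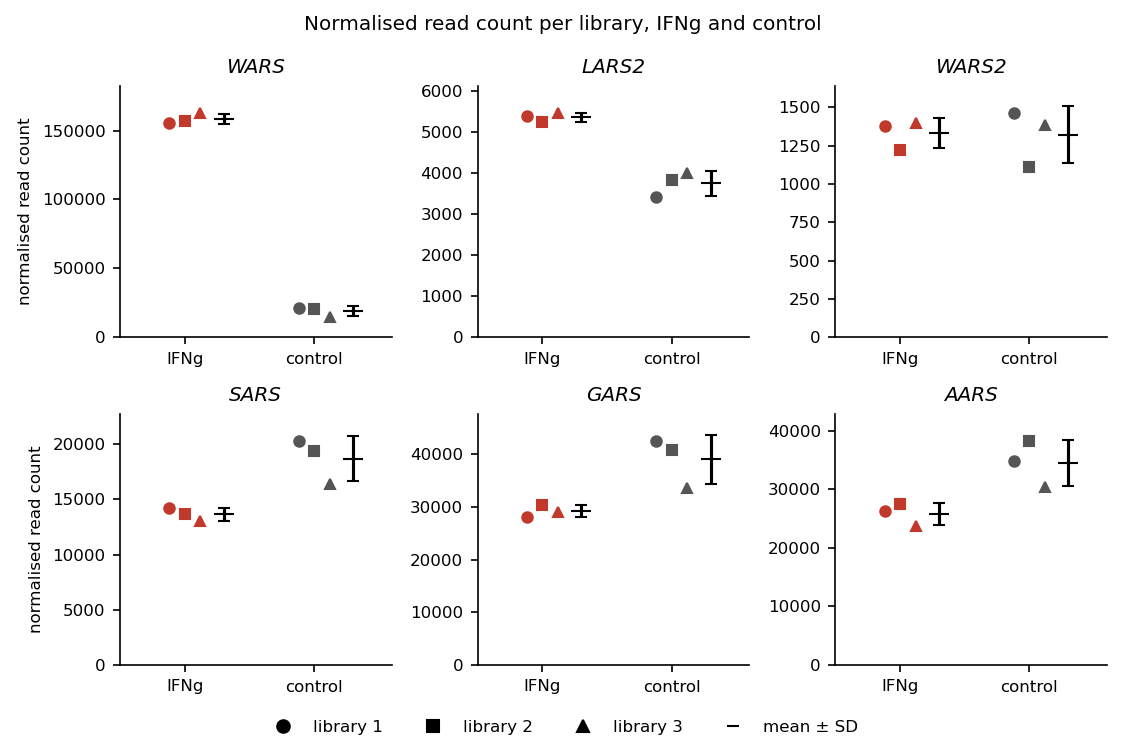
Normalised read counts (vertical axis, starting at 0) of each library for 6 synthetase genes in IFNg (red, left) and control (grey, right), with the mean ± SD of the 3 libraries beside the points. WARS and LARS2 were higher in IFNg libraries with no overlap, SARS, GARS and AARS were lower in every IFNg library, and WARS2 overlapped.

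The sequence before the WARS transcription start is shown because the largest response belongs to this gene and 1 of its promoters held both interferon motifs searched. RefSeq lists 2 starts for the gene on chromosome 14, on the minus strand and 980 bases apart. The 250 bases before each start are printed below in GRCh38.p14, 5′ to 3′ on the gene's strand, the upstream start before the downstream one. Capitals mark matches to the gamma-activated site GAS (TTCNNNGAA, its own reverse complement) and to the interferon-stimulated response element ISRE (searched as GAAA followed after 2 bases by another GAAA, on either strand).
WARS, upstream start, chr14:100376328-100376577: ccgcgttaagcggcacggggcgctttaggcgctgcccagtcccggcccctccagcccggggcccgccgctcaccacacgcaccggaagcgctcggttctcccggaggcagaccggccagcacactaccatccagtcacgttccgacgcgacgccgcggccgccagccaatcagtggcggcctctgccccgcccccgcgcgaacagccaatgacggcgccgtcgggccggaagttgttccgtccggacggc
WARS, downstream start, chr14:100375348-100375597: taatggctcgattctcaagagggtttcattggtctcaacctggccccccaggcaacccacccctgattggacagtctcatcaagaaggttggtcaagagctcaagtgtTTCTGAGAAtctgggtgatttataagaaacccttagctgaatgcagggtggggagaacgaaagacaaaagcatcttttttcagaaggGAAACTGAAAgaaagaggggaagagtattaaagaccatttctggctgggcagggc

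The downstream WARS promoter held 1 GAS match, beginning 142 bases before the start, and 1 ISRE match, beginning 55 bases before it. The upstream promoter held neither motif. Across all 35116 RefSeq promoter windows of 300 bases (250 before and 50 after the start), 7.66% held a GAS match, 3.57% an ISRE match and 0.439% both. Promoter windows were found for 30 of the 36 synthetase genes; of these 30, GAS matches occurred in CARS, TARS, WARS, PARS2 and WARS2 and ISRE matches in WARS and EARS2. A match is a description of the letters and not evidence of binding, and the gene table has 1 row per gene, so reads from the separate starts of WARS cannot be told apart.

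The mitochondrial counterpart WARS2, which charges the same amino acid inside mitochondria, had 1381, 1219 and 1400 normalised counts in IFNg libraries, against 1463, 1112 and 1386 in control libraries. The groups overlapped fully. The log2 difference of WARS2 was 0.02 ± 0.15 (SE; limma adjusted p = 0.97, 95% interval -0.31 to 0.35). The WARS count was 113, 129 and 116 times the WARS2 count in IFNg libraries, against 14.6, 18.6 and 10.8 times in control libraries. This ratio differed by 3.06 on the log2 scale (exact permutation test over libraries, two-sided, p = 0.1, n = 3 each), where 0.1 is the smallest p that 3 against 3 libraries can give.

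WARS changed the make-up of the synthetase transcript pool. Of all reads on the 36 genes, WARS took 24.6%, 24.4% and 26.2% in IFNg libraries, against 3.83%, 3.73% and 3.09% in control libraries. The summed normalised count of the 36 genes was 632096, 644152 and 622560 in IFNg libraries, against 558169, 553405 and 485909 in control libraries. For the 19 cytosolic genes other than WARS the sum was 428133, 437122 and 410547 in IFNg libraries, against 489835, 484574 and 423161 in control libraries, so control 3 fell within the IFNg range. For the 16 mitochondrial genes the sum was 48192, 49990 and 49145 in IFNg libraries, against 46982, 48174 and 47739 in control libraries.

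**Figure D2:**
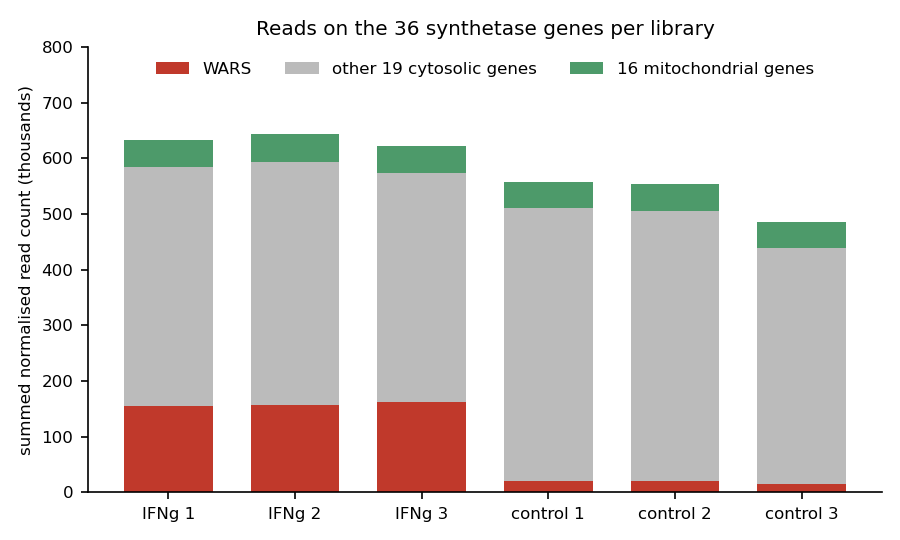
Summed normalised read count (y axis in units of 1000, linear from 0) of WARS (red), the other 19 cytosolic genes (grey) and the 16 mitochondrial genes (green) in each library, IFNg to the left of control. WARS took 24.4% to 26.2% of the reads in IFNg libraries and 3.09% to 3.83% in control libraries.

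Levels of different genes were compared per kilobase of exon, using merged exon lengths of GENCODE 29 (a different build from the one named in the processing notes, so the scale is approximate). On that scale the 20 cytosolic genes ran from 1628 (HARS, for histidine) to 14709 (GARS, for glycine) normalised reads per kilobase in control cells, with a median of 6759. The 16 mitochondrial genes ran from 263 (PARS2, for proline) to 3942 (IARS2, for isoleucine), with a median of 702. By control means, 18 cytosolic genes lay above IARS2. HARS, the lowest cytosolic gene, was not resolved from RARS2 (1625) and CARS2 (1600 in the mean), since RARS2 had 1904, 1583 and 1388 in control libraries, against 1624, 1535 and 1725 for HARS. WARS ranked number 1 of the 36 in each IFNg library, at a mean of 37352 per kilobase, against number 15, 17 and 19 in control libraries, at a mean of 4477. By this measure WARS made up 19.9%, 19.6% and 21.1% of the synthetase total in IFNg libraries, against 2.93%, 2.86% and 2.35% in control libraries. Below WARS, the order in IFNg cells was led by KARS (12460), MARS (11907) and GARS (10999), while in control cells it was led by GARS, MARS (13185) and IARS (11209). In control libraries GARS, at 12687 to 16057 per kilobase, overlapped with MARS, at 12208 to 14357, so the order of these neighbours is not resolved.

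**Figure D3:**
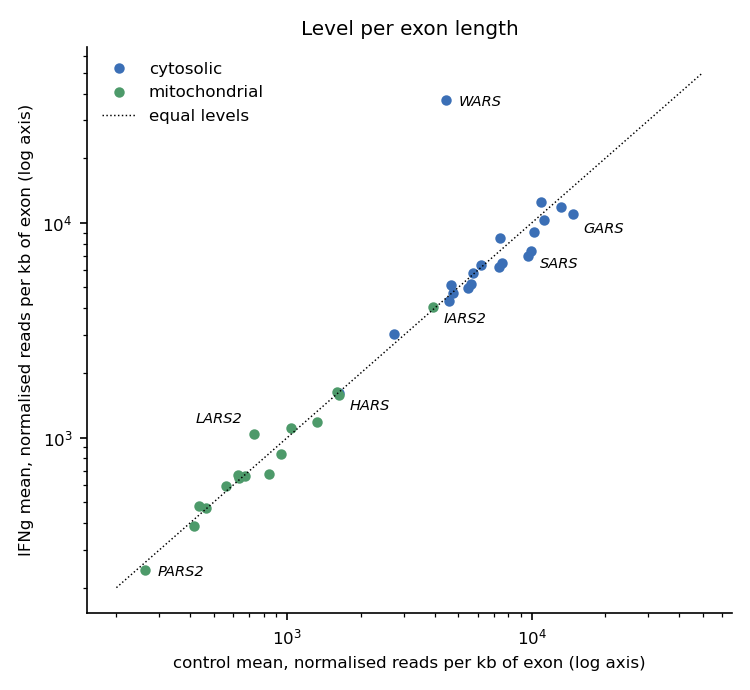
Mean level per kilobase of exon in IFNg (y axis, log) against control (x axis, log) for 20 cytosolic (blue) and 16 mitochondrial (green) synthetase genes, with the line of equal levels dotted. WARS lies far above the line (37352 in IFNg and 4477 in control), and the other genes lie close to it.

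Over all 36 genes, 2 were called higher and 3 lower by limma (adjusted p under 0.05). These are 5.56% and 8.33% of the members, against 3.27% and 1.05% of the 15546 genes tested (4.32% in either direction). The genes called higher were WARS and LARS2, and the genes called lower were SARS, GARS and AARS. Apart from WARS, 30 of 35 genes had a log2 difference smaller than 0.25 in size. IFNg and control libraries did not overlap for 5 members that were higher and 7 that were lower in IFNg (13.9% and 19.4%), against 10.7% and 9.28% of all genes tested.

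SARS, the cytosolic seryl-tRNA synthetase, had 14226, 13646 and 13055 normalised counts in IFNg libraries, against 20334, 19424 and 16374 in control libraries. All IFNg libraries were below all controls, and control 3 was the lowest control. SARS fell by 0.45 on the log2 scale (SE 0.10, limma adjusted p = 0.0214). GARS, which makes both the cytosolic and the mitochondrial glycyl-tRNA synthetase, had 28093, 30401 and 29011 in IFNg libraries, against 42584, 40798 and 33646 in control libraries. Again no IFNg library reached the lowest control, which was control 3. GARS fell by 0.41 on the log2 scale (SE 0.10, limma adjusted p = 0.0389). AARS, the cytosolic alanyl-tRNA synthetase, had 26199, 27435 and 23730 in IFNg libraries, against 34844, 38271 and 30388 in control libraries. AARS fell by 0.42 on the log2 scale (SE 0.10, limma adjusted p = 0.041). The IFNg mean differed from the control mean by -27.1% for SARS, -25.2% for GARS and -25.3% for AARS.

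The calls of SARS, GARS and AARS each depended on every library except control 3. Leaving out any other single library gave adjusted p of 0.0726 to 0.125 for SARS, 0.107 to 0.204 for GARS and 0.0953 to 0.234 for AARS, with log2 differences between -0.48 and -0.34. Leaving out control 3 gave -0.54, -0.52 and -0.50 for SARS, GARS and AARS (adjusted p of 0.00118, 0.00135 and 0.0035). Without a variance trend, limma called none of the 3 (adjusted p of 0.195 to 0.261).

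LARS2, the mitochondrial leucyl-tRNA synthetase, was the 1 gene listed as mitochondrial that passed the test. Its normalised counts were 5377, 5243 and 5462 in IFNg libraries, against 3409, 3835 and 3991 in control libraries. The lowest IFNg library was well above the highest control library. LARS2 rose by 0.52 ± 0.10 on the log2 scale (SE; limma adjusted p = 0.00968), or 43.1% in the means. Its call was lost without IFNg 1 (adjusted p = 0.0617), without IFNg 2 (0.0504) and without a variance trend (0.0907), with a log2 difference between 0.45 and 0.57 over all fits that left out 1 library. The cytosolic leucyl enzyme LARS had 30137, 32361 and 28741 counts in IFNg libraries, against 32955, 30879 and 24393 in control libraries, and did not pass (0.06 ± 0.11, adjusted p = 0.875).

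**Figure D4:**
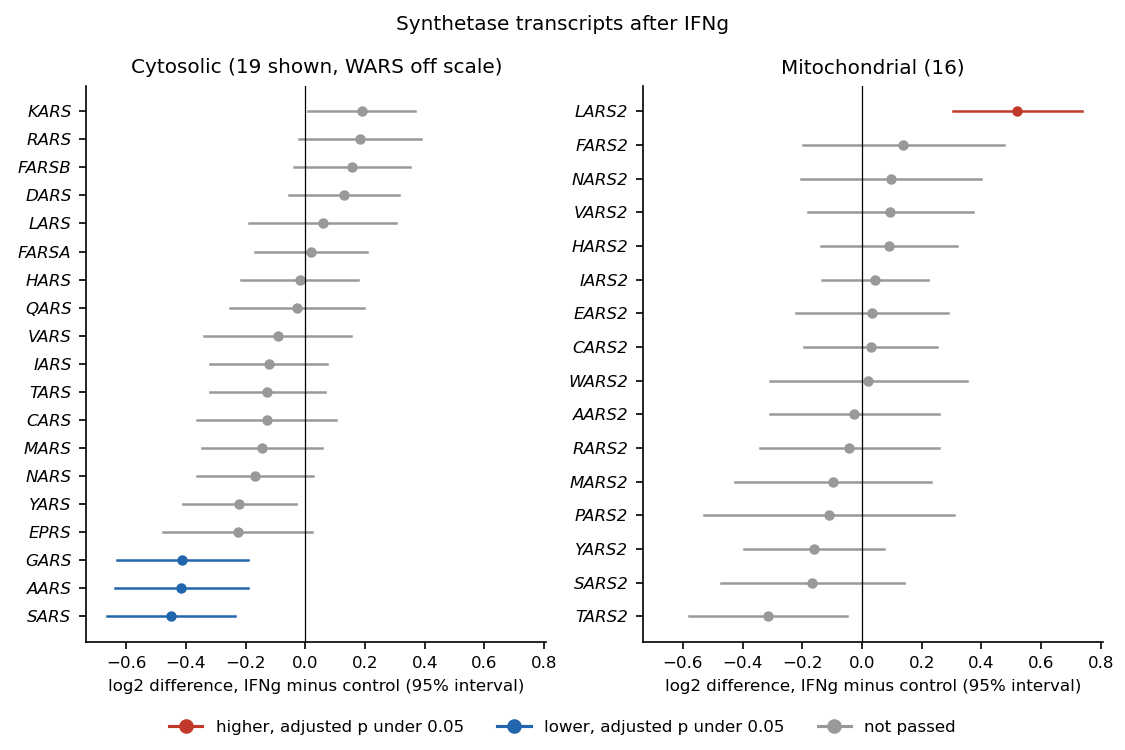
Log2 difference between IFNg and control (x axis, point and 95% interval of the limma fit) for 19 cytosolic genes (left) and 16 mitochondrial genes (right), ordered by size. WARS, at 3.08, is beyond the axis and not drawn; SARS, GARS and AARS (blue) were called lower, LARS2 (red) higher, and all other intervals are grey.

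Between the compartments, the 20 cytosolic genes had a median log2 difference of -0.11 and the 16 mitochondrial genes of 0.03, beside -0.01 over all genes tested. Without WARS the cytosolic median was -0.12. GARS and KARS, which make the enzyme of both compartments, were counted as cytosolic only. Of the 19 other cytosolic genes, 3 were called lower and 0 higher by limma (4 and 1 at an unadjusted p under 0.05, 3 and 0 by edgeR and by DESeq2). Of the 16 mitochondrial genes, 1 was called higher and 0 lower (1 and 1 at an unadjusted p under 0.05, 1 and 0 by edgeR and by DESeq2). The limma SE was 0.08 (KARS) to 0.11 (EPRS) for the 19 cytosolic genes and 0.08 (IARS2) to 0.19 (PARS2) for the mitochondrial ones. A difference of the same size therefore passes less readily in mitochondrial genes with a wide SE. Among 17 pairings of a cytosolic with a mitochondrial gene for the same amino acid, the cytosolic gene had the lower log2 difference in 13 and the higher in 4. The widest of these gaps outside tryptophan were LARS against LARS2 (-0.46) and AARS against AARS2 (-0.39). The 4 pairings in the other direction were WARS with WARS2, RARS with RARS2, TARS with TARS2 and FARSB with FARS2. These are counts over genes of the same libraries, and the difference between compartments was not tested.

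The cytosolic genes also varied together between libraries of 1 group. Control 3 was the lowest control library for 13 of the 19 cytosolic genes other than WARS, against 5 of the 16 mitochondrial genes and 35.6% of all genes tested. IFNg 3 was the lowest IFNg library for 12 of these 19, against 6 of the 16 and 38% of all genes tested. Set against the mean of the controls, the median of the 19 genes was -0.08, -0.07 and -0.20 on the log2 scale in IFNg libraries, against 0.07, 0.06 and -0.12 in control libraries. Control 3 therefore lay below IFNg 1 and IFNg 2. For the mitochondrial genes these medians were -0.01, 0.04 and -0.03 in IFNg libraries, against -0.01, 0.05 and 0.01 in control libraries. Without both libraries numbered 3, 5 cytosolic genes were called lower (SARS, GARS, AARS, EPRS and YARS), against 3.85% of all genes in that fit, and the mitochondrial count stayed at 0.

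**Figure D5:**
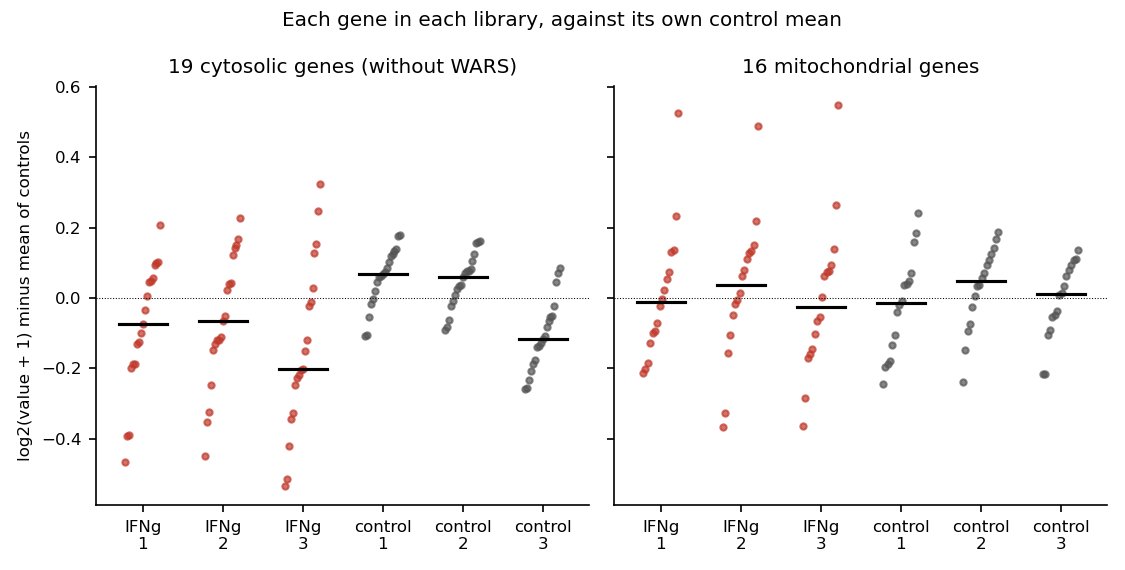
Log2(value + 1) of each gene minus its own control mean (y axis) in each library, IFNg (red) left of control (grey), for 19 cytosolic genes without WARS (left) and 16 mitochondrial genes (right), with black bars at the medians. The cytosolic median of control 3 (-0.12) lies below those of IFNg 1 and IFNg 2 (-0.08 and -0.07).

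EPRS, a single protein that charges both glutamate and proline in the cytosol, had 32075, 32966 and 28795 counts in IFNg libraries, against 41387, 38539 and 30608 in control libraries. Only control 3 lay within the IFNg range. The log2 difference was -0.23 ± 0.11 (SE; limma adjusted p = 0.39, 95% interval -0.48 to 0.02), and it passed without control 3 (-0.36, adjusted p = 0.0269). YARS, for tyrosine, had 21350, 20643 and 21046 counts in IFNg libraries, against 25552, 25824 and 22252 in control libraries, with no overlap. Its log2 difference of -0.22 ± 0.09 did not pass (adjusted p = 0.239), but did without control 3 (-0.29, adjusted p = 0.0402). TARS2, the mitochondrial threonyl-tRNA synthetase, had 2025, 1823 and 1823 counts in IFNg libraries, against 2181, 2591 and 2288 in control libraries, with a log2 difference of -0.31 ± 0.12 (adjusted p = 0.228). This was the largest decrease in value among the mitochondrial genes, and it did not pass.

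KARS, which makes the lysyl enzyme of both compartments, was the highest of the other cytosolic genes by log2 difference. It had 30745, 31168 and 29106 counts in IFNg libraries, against 28020, 26483 and 25421 in control libraries. The groups did not overlap, but the log2 difference of 0.19 ± 0.08 did not pass (limma adjusted p = 0.301, 95% interval 0.01 to 0.37). RARS (0.18), FARSB (0.16) and DARS (0.13), for arginine, the beta subunit of the phenylalanine enzyme and aspartate, also had positive differences that did not pass (adjusted p of 0.4 to 0.529).

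By place in the cell, none of the 8 cytosolic genes of the multisynthetase complex (DARS, EPRS, IARS, KARS, LARS, MARS, QARS and RARS) was called in either direction by limma, edgeR or DESeq2 (1 higher and 0 lower at an unadjusted p under 0.05). With 4.32% of all genes called, a count of 0 among 8 is near the background, and 1 of the 8 (EPRS) was called lower without both libraries numbered 3. Their median log2 difference was 0.02. Of the 12 cytosolic genes outside the complex, 1 was called higher (WARS) and 3 lower (4 without both libraries numbered 3), with a median of -0.13. By structural family, the 3 genes called lower were all among the 10 listed as class II, and WARS was among the 10 listed as class I. Without both libraries numbered 3, 2 genes listed as class I (EPRS and YARS) were called lower beside the 3 of class II. EPRS, which joins a glutamate and a proline enzyme of different classes, was listed under class I only. The scaffold genes AIMP1, AIMP2 and EEF1E1, which hold the complex together, differed by 0.08 ± 0.11, 0.02 ± 0.12 and 0.10 ± 0.14 (limma adjusted p of 0.822 to 0.961).

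Promoter windows of the synthetase genes were also searched for the C/EBP-ATF response element, the motif that ATF4 binds with its partners (TGATGNAA, or TTNCATCA on the other strand). It was found in 8 of the 39 promoter windows of synthetase genes, or 20.5%, against 3.62% of all windows. The 8 windows belong to 8 of the 30 genes that have one. These were AARS, CARS, GARS, IARS, MARS, NARS and TARS among the cytosolic genes and YARS2 among the mitochondrial ones. Of the genes called lower, AARS and GARS held the motif and SARS did not in these windows. The 30 bases around the motif are shown 5′ to 3′ on the gene's strand for the cytosolic genes, in GRCh38.p14 from RefSeq, with the motif in capitals.
AARS, chr16:70289675-70289704, minus strand: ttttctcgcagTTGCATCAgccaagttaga
CARS, chr11:3057407-3057436, minus strand: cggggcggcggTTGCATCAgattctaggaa
GARS, chr7:30594834-30594863, plus strand: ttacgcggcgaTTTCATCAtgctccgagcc
IARS, chr9:92293692-92293721, minus strand: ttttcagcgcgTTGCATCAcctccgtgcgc
MARS, chr12:57488053-57488082, plus strand: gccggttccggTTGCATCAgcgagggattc
NARS, chr18:57621804-57621833, minus strand: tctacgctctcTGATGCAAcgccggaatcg
TARS, chr5:33440956-33440985, plus strand: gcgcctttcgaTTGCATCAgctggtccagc

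The 7 cytosolic genes shown had log2 differences of -0.42 (AARS), -0.41 (GARS), -0.17 (NARS), -0.15 (MARS), -0.13 (CARS), -0.13 (TARS) and -0.12 (IARS). All 7 values were negative and 2 of them passed the test. Among the 19 cytosolic genes without WARS, which include these 7, 13 values were negative and 3 genes were called lower. Over all genes, 8110 values of 15546 were negative and 1.05% were called lower. Of the 9 cytosolic genes with a window but no match, 4 had negative values, 1 was called lower (SARS) and 1 higher (WARS). DARS, LARS, VARS and YARS had no window, and 2 of these 4 had negative values. The difference between genes with and without the motif was not tested. The element in GARS belongs to the second of its RefSeq starts, 33 bases before it, and in AARS it begins 187 bases before the start.

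Other genes of the ATF4 pathway were read for comparison. The 17 listed were genes of amino acid supply together with regulators such as ATF4, TRIB3 and EIF4EBP1. Of these 17, 5 were called lower and 0 higher by limma (8 and 0 at an unadjusted p under 0.05, 6 and 0 by edgeR, 7 and 0 by DESeq2). Their median log2 difference was -0.31. Over all genes tested, 1.05% were called lower and 3.27% higher. ATF4 itself had 31623, 29850 and 35865 counts in IFNg libraries, against 38921, 42522 and 45688 in control libraries. All IFNg libraries were below all controls, and ATF4 fell by 0.39 on the log2 scale (SE 0.10, limma adjusted p = 0.0481), a call that held in 2 of the 6 fits that left out 1 library (adjusted p of at most 0.25 in all 6). The leucine transporter gene SLC7A5 fell by 0.61 (SE 0.10, adjusted p = 0.00253) and TRIB3, a stress-induced pseudokinase gene, by 0.62 (SE 0.11, adjusted p = 0.00491), and both calls held when any 1 library was left out, but not without a variance trend (0.0845 and 0.119). The calls of ATF4, SLC1A5 and EIF4EBP1 were lost without that trend too (0.264, 0.205 and 0.261). The glutamine transporter gene SLC1A5 fell by 0.39 (adjusted p = 0.0293) and EIF4EBP1, a brake on translation initiation, by 0.45 (adjusted p = 0.0413), and each lost its call in 4 of the 6 fits that left out 1 library. The pathway genes did not share 1 order of the controls. For ATF4 and SLC7A5 control 3 was the highest control. It was the lowest for other genes of the pathway, among them ASNS, PSAT1, DDIT3, PYCR1 and CEBPB, and for most cytosolic synthetases.

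XPOT, which exports tRNA from the nucleus, had 31513, 32888 and 30756 counts in IFNg libraries, against 43482, 40627 and 32342 in control libraries. Only control 3 fell within the IFNg range. The log2 difference of -0.28 ± 0.11 did not pass (SE; limma adjusted p = 0.23), and passed without control 3 (-0.41, adjusted p = 0.00759). Of the 25 genes of tRNA maturation and export in the table, including XPOT, none was called by limma, edgeR or DESeq2 (0 higher and 1 lower at an unadjusted p under 0.05). On the side of tryptophan use, IDO1 had 1847, 1570 and 3042 counts in IFNg libraries, against 29.99, 62.6 and 33.1 in control libraries. Neither IDO1 nor WARS, which uses tryptophan for protein synthesis, overlapped between the groups, and IDO1 was the 1 gene called among the 6 kept genes of tryptophan use (log2 difference 5.67 ± 0.34, limma adjusted p = 5.67e-07).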

How the data were processed

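Total RNA of HT-1080 cells was column-purified, DNase-treated, depleted of ribosomal RNA and sequenced as stranded paired-end libraries, per the labels' protocols. Tools listed in the submitters' processing notes are TopHat2 2.0.13, Cuffdiff 2.2.1, Cufflinks and FastQC 0.11.3, and the builds are GRCh37 and hg19. How reads were counted, with which strand setting, and how values were scaled is not given in the sources used here, so genes that overlap another gene or have an antisense partner are uncertain. Per gene and library, the deposited values are a signal. Its name says RPKM, but 100% of the positive values in each library were whole multiples of 1 step (tolerance 0.001 reads), so the deposited signal is whole reads divided by a size factor (0.863 to 1.2), and those reads were recovered.

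The test was limma 3.58.1 (R 4.3.3) applied to log2(value + 1), with the variance trended on level and group as the only term, two-sided, and Benjamini-Hochberg adjustment at 0.05 over 15546 genes (1641 were removed for reaching 0.5 in fewer than 3 libraries). Log2 differences are IFNg minus control. The fit was also run on simulated counts with known changes. These were drawn independently for each gene, so a shift shared by many genes, as in libraries numbered 3, was not covered. Alternatives were other pseudocounts, filters and scaling, no variance trend, a replicate block, left-out libraries, and edgeR 4.0.16 and DESeq2 1.42.0 on the recovered reads. Counting limits the precision little: the lowest member, PARS2, had about 570 counts in IFNg and 617 in control. Its limma SE was nevertheless the largest among the members (0.19). Exon lengths are merged exons of protein-coding transcripts. Named were WARS, WARS2, members past the threshold, the 3 largest differences that did not pass, EPRS, GARS and KARS, up to 4 called genes of each other list, XPOT, the scaffold genes and IRF1. Other genes named, such as RARS, FARSB, DARS, LARS and ATF4, were singled out after their values were seen. The members and lists were chosen with earlier results of these data known. Some items are not reported here. Same-numbered libraries are not known to be paired.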

Additional observations from a re-analysis of the deposited data

How the results depend on the processing

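The WARS log2 difference stayed past the threshold under every alternative run (2.90 to 3.17). Calls of the other members depended on the libraries and the variance model. Without a variance trend, 1 synthetase gene was called higher and 0 lower (0 cytosolic). Over the 6 fits that left out 1 library, 1 to 2 were called higher (WARS in each, and the mitochondrial LARS2 in 4). The genes called lower in these fits numbered 0 to 5, with 0 to 5 cytosolic and 0 mitochondrial. Without both libraries numbered 3, 5 synthetase genes were called lower, 5 of them listed as cytosolic, among them GARS, which serves both compartments. The mitochondrial median log2 difference ranged from -0.011 to 0.048 over fits that left out 1 library, so its sign is not resolved. The difference in the WARS share of synthetase reads, 21.5 percentage points, was 20.7 without both libraries numbered 3 and 23.3 over cytosolic enzymes only. Over fits that left out 1 library, WARS2 ranged from -0.098 to 0.10, AIMP1 from -0.015 to 0.17 and AIMP2 from -0.067 to 0.13 on the log2 scale, and AIMP1 was -0.019 without both libraries numbered 3. The causes were not tested. With the replicate block, 915 genes were higher and 549 lower over all genes (against 509 and 163), the members called were the same 5, and XPOT passed (adjusted p = 0.019). Same-numbered libraries correlated at 0.044, 0.021 and 0.11 in their deviations from the group means over all genes tested. Over the more highly expressed genes these values were 0.071, 0.22 and 0.37. Differently numbered libraries gave 0.24 (IFNg 1 with control 2) and 0.11 (IFNg 2 with control 1) over the latter genes. Where only 1 library of the pair was number 3, the values were -0.35 to -0.14. The WARS over WARS2 difference within replicate numbers was 3.06 (exact sign-flip test, p = 0.25, the smallest that 3 pairs allow). DESeq2 called 709 genes higher and 339 lower. Without a variance trend 279 genes were higher and 41 lower, against 882 and 599 without both libraries numbered 3. Fits that left out 1 library called 330 to 847 genes higher and 37 to 455 lower. Pseudocounts of 0.5 and 5, other filters, TMM scaling, edgeR and DESeq2 left the same 5 members called.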

Other observations

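Genes that handle tRNA outside charging gave few calls, near the share over all genes tested (3.27% higher and 1.05% lower). Of 52 measured genes of tRNA base modification, 1 was called higher and 0 lower by limma (3 and 1 at an unadjusted p under 0.05, 1 and 0 by edgeR, 2 and 0 by DESeq2), with a median log2 difference of 0.02. The gene called was PUS7, a pseudouridine synthase gene, with 3019, 3381 and 3538 normalised counts in IFNg libraries, against 2261, 2340 and 2478 in control libraries. All IFNg libraries were above all controls (log2 difference 0.49 ± 0.11, SE; limma adjusted p = 0.0278), and the call held in 1 of the 6 fits that left out 1 library, the one without control 3.

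The elongation factors that deliver charged tRNA to ribosomes (7 genes, among them EEF1A1 and the mitochondrial TUFM) had log2 differences of -0.09 to 0.06, and none was called by limma, edgeR or DESeq2 or had an unadjusted p under 0.05. The same held for the 5 measured partners of mitochondrial charging. Among 6 genes of selenocysteine tRNA synthesis and use, and among 7 synthetase-like, editing and peptidyl-tRNA hydrolase genes, none was called by limma, edgeR or DESeq2, with 1 higher in each list at an unadjusted p under 0.05.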
